A study of Mus musculus with 6 samples.

Results

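YAP and TAZ, their TEAD partners and a small set of their best known target genes were followed in mouse induced pluripotent stem cells (iPSCs), cells reprogrammed to a state like that of embryonic stem cells, with and without serum response factor (SRF). The 10 genes were taken by name from the deposited table of 24421 gene entries and 25567 entries in all. They are the coactivators Yap1 and Wwtr1 (TAZ), the transcription factors Tead1, Tead2, Tead3 and Tead4, and the targets Ankrd1, Amotl2, Cyr61 and Ctgf, the last 2 of which are now called Ccn1 and Ccn2. RNA from 3 libraries of SRF KO cells, whose genotype is SRFΔ/Δ, was compared with RNA from 3 libraries of WT cells, whose genotype is SRFf/f. The WT cells therefore carry the conditional allele of SRF, not an unmodified one. Both were grown in medium with serum. No age, sex or strain is given in the labels. Whether the 3 libraries of a group are separate clones or cultures of 1 clone is not stated, so that p-values measure only the spread between these libraries, which may be technical.

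YAP and TAZ are held in the cytoplasm and degraded when the kinases MST and LATS of the Hippo pathway phosphorylate them, and enter the nucleus when this cascade is off or when cells spread and build actin stress fibres. They do not bind DNA themselves, and act through TEAD proteins bound at their target genes. Because YAP and TAZ are controlled mainly as proteins, their mRNA level is not a measure of their activity. SRF with its actin-sensing cofactors also acts on some of the same genes, among them Ctgf and Cyr61. In preimplantation embryos Tead4 with YAP drives the trophoblast fate, and Tead2 and Yap1 are expressed in embryonic stem cells.

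The stretches of DNA just upstream of 3 of the targets and of Yap1 are shown because TEAD proteins recognise the letters GGAATG. The targets are thought to be read through this motif, and Yap1 is shown as a coactivator, not as a target. Each window printed holds a match, while that of Tead2, which holds none, is not printed. Capitals mark GGAATG on the printed strand or CATTCC, its complement, where the match lies on the other strand. Each line holds the 250 bases before the transcript start, 5′ to 3′ on the gene's strand, from RefSeq with assembly GRCm38.p6. The windows are chr3:145649986-145650235 (minus strand) for Ccn1, chr9:102717554-102717803 (plus strand) for Amotl2, chr19:36119845-36120094 (minus strand) for Ankrd1 and chr9:8004597-8004846 (minus strand) for Yap1.
Ccn1: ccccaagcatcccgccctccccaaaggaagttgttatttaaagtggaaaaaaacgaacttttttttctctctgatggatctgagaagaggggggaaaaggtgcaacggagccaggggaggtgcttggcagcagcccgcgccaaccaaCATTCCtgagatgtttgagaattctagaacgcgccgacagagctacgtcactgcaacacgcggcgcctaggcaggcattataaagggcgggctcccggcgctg
Amotl2: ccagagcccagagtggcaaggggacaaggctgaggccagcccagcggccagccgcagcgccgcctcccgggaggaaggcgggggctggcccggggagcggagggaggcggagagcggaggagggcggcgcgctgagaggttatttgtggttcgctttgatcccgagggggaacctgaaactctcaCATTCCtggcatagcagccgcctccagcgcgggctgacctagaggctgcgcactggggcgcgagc
Ankrd1: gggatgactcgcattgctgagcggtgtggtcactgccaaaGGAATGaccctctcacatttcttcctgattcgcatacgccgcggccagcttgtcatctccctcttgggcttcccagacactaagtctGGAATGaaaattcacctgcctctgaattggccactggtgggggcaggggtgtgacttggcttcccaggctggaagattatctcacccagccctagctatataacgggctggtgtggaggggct
Yap1: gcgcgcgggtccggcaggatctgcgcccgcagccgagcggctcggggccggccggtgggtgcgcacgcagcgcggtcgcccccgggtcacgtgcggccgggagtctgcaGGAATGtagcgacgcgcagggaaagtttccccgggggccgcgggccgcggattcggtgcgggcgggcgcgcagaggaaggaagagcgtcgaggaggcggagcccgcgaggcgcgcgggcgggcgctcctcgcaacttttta

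The match in Ccn1 begins 103 bases before the start, that in Amotl2 65 bases and that in Yap1 141 bases. Ankrd1 holds 2 matches, which begin 210 and 123 bases before the start. Of the 10 genes, 7 had an entry in the RefSeq table, with 10 windows, since some genes have several starts. At least 1 match was found for 6 of the 7 genes, in 8 of the 10 windows. The 2 windows of Wwtr1 overlap and hold the same match, so that these 8 are not all separate sites. Over all 32851 windows of 250 bases, 12.6% held the motif. The CArG box, to which SRF binds, was found in 0 of the 10 windows and in 1.47% of all windows, while the window before Srf itself held 2. A match in letters is a description and not a site of binding, and binding further from the start was not examined. Ccn2, Tead1 and Tead4 had no entry.

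Total counts were between 26321602 and 36680156 per library. Levels are CPM, counts divided by the library total and brought to a common scale with TMM (trimmed mean of M values). The deleted gene fell to 11.5% of its WT level: Srf was at 3.97 ± 0.707 CPM in the KO libraries, against 34.5 ± 4.14 CPM for WT (SD, n = 3). The 12 pluripotency markers were all detected in every library, and their summed level was between 4801 and 4896 CPM in SRF KO, below the WT range of 5769 to 6021 CPM. WT replicate 2 stood apart from the other WT libraries on the second principal component, at -23.1 against 9.28 and 15.5, and where a call, a direction or a count of a gene list changed without it, the value without it stands beside the result. In bulk RNA, fewer cells of a type and less RNA per cell cannot be told apart, which holds for every result below.

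Across the table, 41.1% of the 15611 genes and transposable element subfamilies tested passed an adjusted p of 0.05, 20.4% higher and 20.7% lower in SRF KO (quasi-likelihood test of edgeR, p-values adjusted by Benjamini-Hochberg over all entries tested, here and for every adjusted p given). Each of the 10 genes passed the filter on low counts. Against this background 1 of the 10 rose (Ankrd1) and 4 fell (Tead3, Cyr61, Ctgf and Amotl2), while the other 5 did not pass. Without WT replicate 2, 1 rose and 5 fell, Tead4 being the addition, beside 23.5% higher and 24.6% lower over all entries. The share of 5 in 10 is close to that of all entries. By role, each of the 4 targets was among the 5 called, and of the 6 regulators only Tead3 was, a difference that was not tested. The median log2 fold change of the 10 genes was -0.11, beside -0.017 for all entries.

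**Figure D1:**
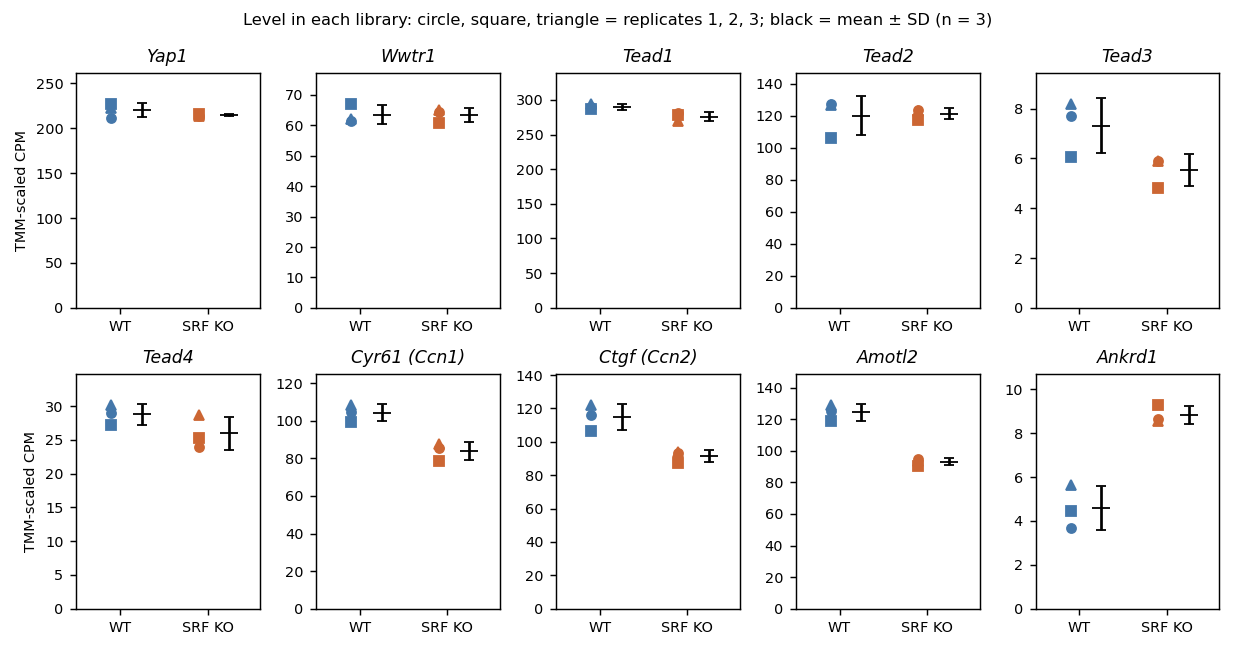
TMM-scaled CPM (y axis, from 0) of each of the 10 genes in the 3 WT and 3 SRF KO libraries (x axis), with the mean and SD in black. The values of Cyr61, Ctgf and Amotl2 in SRF KO all lie under those in WT, those of Ankrd1 all lie over them, and those of Yap1, Wwtr1 and Tead2 overlap.

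Among the coactivators, Yap1 was at 214, 216 and 214 CPM in SRF KO replicates 1 to 3 and at 211, 227 and 223 CPM in WT replicates 1 to 3. The SRF KO values lay inside the WT range. Its log2 fold change was -0.04 with a 95% interval from -0.14 to 0.07 (SE 0.05, edgeR adjusted p 0.560).

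Wwtr1, which encodes TAZ, was at 64.5, 60.8 and 65.1 CPM in SRF KO, against 61.5, 67.1 and 62.0 CPM in WT. The groups overlapped and their means were equal to within their SDs, at 63.5 ± 2.34 and 63.5 ± 3.08 CPM (SD, n = 3). The interval of its log2 fold change ran from -0.12 to 0.12 (edgeR adjusted p 0.993), and without WT replicate 2 the change was 0.044 (adjusted p 0.476).

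The balance between the paralogs was measured within each library, which removes any effect of library scaling. Per kilobase of the longest coding transcript, Wwtr1 stood at 26.3% ± 1.13 of Yap1 in SRF KO, against 25.6% ± 0.776 for WT (SD, n = 3). This percentage depends on the length used. With all exons joined, Yap1 is 9257 bases long in place of 4171, and Wwtr1 4779 in place of 4697, which would raise it. The difference between the groups in log2 ratio does not depend on length. The log2 ratio of Wwtr1 to Yap1 was -1.90, -2.00 and -1.89 in SRF KO, against -1.95, -1.93 and -2.02 for WT. These overlap, and the difference of 0.036 had p = 0.5 (exact permutation of the group labels, two-sided, 20 assignments), where 0.1 is the smallest p that 3 against 3 can give.

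The TEAD genes encode the DNA-binding partners of YAP and TAZ. Tead1 was at 280.3, 279 and 269 CPM in SRF KO, against 289, 286 and 294 CPM in WT. Each SRF KO value lay below each WT value, yet the log2 fold change was only -0.07 and did not pass (interval from -0.17 to 0.03, edgeR adjusted p 0.238). SRF KO lay wholly under WT in 26.1% of all entries tested, so that such an order is common in these data.

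Tead2 was at 123, 117 and 123 CPM in SRF KO, against 127, 106 and 127 CPM in WT, where replicate 2 was the low one. Its log2 fold change of 0.015 (interval from -0.14 to 0.16, edgeR adjusted p 0.886) became -0.061 without WT replicate 2, and neither passed.

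Tead4, the TEAD of the trophoblast lineage, was at 23.9, 25.3 and 28.6 CPM in SRF KO, against 28.9, 27.1 and 30.2 CPM in WT. The groups overlapped through SRF KO replicate 3. The log2 fold change was -0.15 with an interval from -0.32 to 0.02 (edgeR adjusted p 0.155), and it passed at -0.18 when WT replicate 2 was left out (edgeR adjusted p 0.0469).

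Tead3, the scarcest of the family, was at 5.91, 4.80 and 5.88 CPM in SRF KO, against 7.70, 6.06 and 8.19 CPM in WT, from 127 to 279 counts per library. SRF KO lay below WT in all libraries, by a narrow gap to WT replicate 2. The fall was 0.41 on the log2 scale (SE 0.13, edgeR adjusted p 0.0260). The fold kept its direction but did not pass without SRF KO replicate 2 (-0.31, adjusted p 0.103), WT replicate 1 (-0.37, 0.0879) or WT replicate 3 (-0.33, 0.0792).

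The make-up of the family moved by at most 2.21 percentage points in any share. Per kilobase, Tead2 held 48.4% ± 0.589 of the TEAD counts in SRF KO, against 46.1% ± 1.92 for WT (SD, n = 3), the largest share in each library. Tead1 followed with 37.5% ± 1.23 and 38.2% ± 2.02, Tead4 with 11.4% ± 1.008 and 12.2% ± 0.258, and Tead3 with 2.70% ± 0.269 and 3.44% ± 0.323. The shares of Tead2 and Tead3 did not overlap between the groups and reached p = 0.1 in the exact permutation test, the smallest it allows, or 0.2 after Benjamini-Hochberg adjustment over the 4 shares. Those of Tead1 and Tead4 overlapped. Without WT replicate 2, the difference in share was 1.12 percentage points for Tead2, in place of 2.21, and 0.52 for Tead1, in place of -0.64. The order of Tead1 and Tead2 depends on length: on raw counts Tead1, whose longest transcript is 9964 bases against 3396 bases for Tead2, held 65.1% of the TEAD counts in WT. The summed CPM of the 4 genes was 429 ± 4.27 in SRF KO, with 446 ± 18.1 for WT, and the libraries overlapped.

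**Figure D2:**
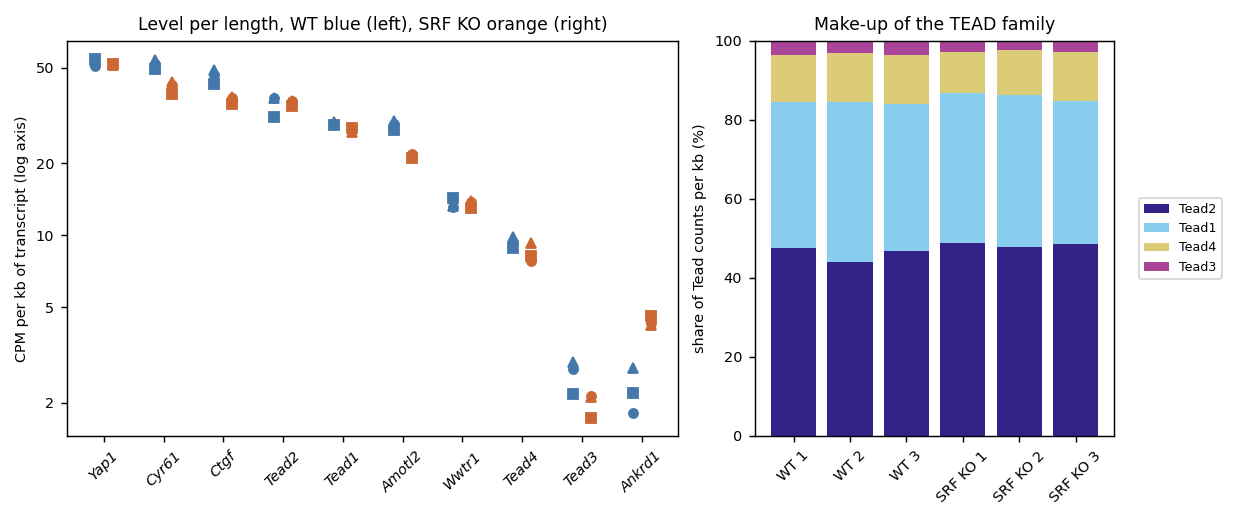
Left, CPM per kilobase of the longest coding transcript (log axis) of the 10 genes in each library, ordered by their WT mean, and right, the share in percent of each TEAD gene in the TEAD counts per kilobase of each library. Yap1 stands at the top at about 51 to 54, Ankrd1 and Tead3 at the bottom, and Tead2 and Tead1 together make up most of the TEAD counts in each library.

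The targets came next. Cyr61 encodes CCN1, a secreted matrix protein that binds integrins. It was at 85.5, 78.7 and 87.5 CPM in SRF KO, against 105, 99.4 and 108 CPM in WT. The groups did not overlap, and the SRF KO mean was 80.5% of that of WT. On the log2 scale the change was -0.31 (SE 0.06, edgeR adjusted p 0.000997).

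Ctgf encodes CCN2, the connective tissue growth factor, and is the most used reporter of YAP activity. Its levels were 93.3, 87.5 and 94.1 CPM in SRF KO, against 116, 106 and 122 CPM for WT, again without overlap. Its change of -0.33 on the log2 scale (SE 0.06, edgeR adjusted p 0.00106) was as large as that of Cyr61 within the errors of both. Within each library the log2 ratio of Cyr61 to Ctgf was between -0.17 and -0.096, and it differed between the groups by 0.011, less than the SD of either.

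Amotl2, an angiomotin-like junction protein that binds YAP and holds it back, is itself induced by YAP. It was at 94.6, 90.4 and 93.8 CPM in SRF KO, against 125, 119 and 129 CPM in WT. All SRF KO values lay well below all WT values. The SRF KO mean was 74.7% of that of WT, and the log2 fold change -0.42 (SE 0.05, edgeR adjusted p 5.1e-05), the largest of the 3 falls. Relative to Ctgf in the same library, Amotl2 was lower in SRF KO by 0.095 on the log2 scale, with no overlap and p = 0.1 in the exact permutation test, the smallest it allows.

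Ankrd1 encodes a nuclear ankyrin repeat protein induced by stretch in muscle, and went the other way. It was at 8.66, 9.29 and 8.54 CPM in SRF KO, against 3.67, 4.43 and 5.65 CPM in WT, from 233 to 247 counts and from 114 to 162 counts per library. The lowest SRF KO value was above the highest WT value. The rise was 0.96 on the log2 scale (SE 0.14, edgeR adjusted p 0.000201), and it was 0.80 without WT replicate 1 and 1.13 without WT replicate 3, past the threshold both times. The log2 ratio of Ankrd1 to Ctgf within each library was -3.43, -3.24 and -3.46 in SRF KO, against -4.98, -4.58 and -4.44 for WT. These 2 targets of the same coactivators thus differed in direction by 1.29 on the log2 scale (exact permutation p = 0.1, the smallest possible).

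Cyr61, Ctgf and Amotl2 also varied together among replicates. In each group, replicate 2 had the lowest level of all 3 genes. The summed level of the fibroblast markers was lowest in the same 2 libraries. These 2 libraries also deviated alike from their group means over 12920 features with a mean of at least 50 counts (r 0.358). The pattern is therefore not particular to these genes, and the share of entries that have it was not counted.

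The order of level was taken per kilobase of the longest coding transcript. WT cells held Yap1 at 52.8 ± 1.98 CPM per kb, Cyr61 at 51.6 ± 2.26, Ctgf at 46.1 ± 3.24, Tead2 at 35.3 ± 3.58, Tead1 at 29.1 ± 0.411 and Amotl2 at 28.7 ± 1.23 (SD, n = 3). Lower down were Wwtr1 at 13.5 ± 0.656, Tead4 at 9.35 ± 0.499, Tead3 at 2.64 ± 0.402 and Ankrd1 at 2.27 ± 0.493. Neighbours whose libraries overlapped were Yap1 and Cyr61, Tead1 and Amotl2, and Tead3 and Ankrd1. In SRF KO Amotl2 dropped to 21.5 ± 0.512 and no longer overlapped Tead1 at 27.7 ± 0.615. Ankrd1 at 4.37 ± 0.200 now stood above Tead3 at 1.99 ± 0.228, and Ctgf at 36.8 ± 1.45 overlapped Tead2 at 35.7 ± 0.983. The order between genes depends on the length used. With all exons joined, Yap1 is 9257 bases long in place of 4171, and Tead3 6714 in place of 2775. Cyr61 is 2019 bases by both measures, so that joined exons would place Yap1 below Cyr61.

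**Figure D3:**
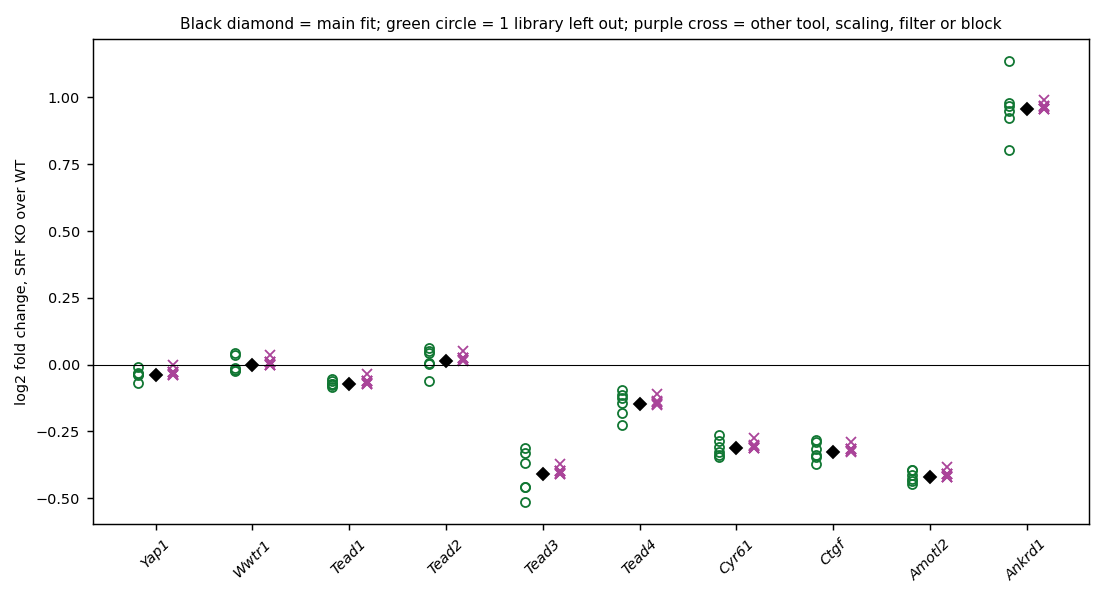
Log2 fold change of SRF KO over WT (y axis) of each of the 10 genes in the fit reported (diamond), with each library left out (circles) and with another tool, scaling, filter or block (crosses). Ankrd1 stays between 0.80 and 1.13, Amotl2 between -0.45 and -0.38, and Cyr61 and Ctgf between -0.37 and -0.26, while Yap1, Wwtr1 and Tead2 stay within 0.07 of 0.

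The other genes of the Hippo pathway were read from a list of 35, of which 33 passed the filter on low counts. Of these, 9 rose and 8 fell (51.5% called, beside 41.1% of all entries), and the median log2 fold change was 0.0084. Without WT replicate 2, 12 rose and 9 fell. In the kinase core, Stk3 (MST2) fell by 0.39 on the log2 scale, from 40.6 ± 2.81 to 30.9 ± 3.33 CPM (SD, n = 3, edgeR adjusted p 0.00268). Its paralog Stk4 (MST1) had a log2 fold change of -0.06 and did not pass (adjusted p 0.414). Lats2 rose by 0.66, from 8.12 ± 0.939 to 12.8 ± 1.10 CPM (adjusted p 0.000379), whereas Lats1, the more abundant in counts, had 0.10 (adjusted p 0.274) and passed, at 0.17, only when WT replicate 2 was left out. Of the LATS cofactors, Mob1b rose by 0.38 (adjusted p 0.00063) and Mob1a had 0.06 (adjusted p 0.486). In each of these 3 pairs 1 paralog passed and the other did not, and the difference within a pair was not tested.

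The genes that act upstream of the kinases were mixed. Nf2, which encodes merlin, fell by 0.29, from 165 ± 3.52 to 135 ± 5.36 CPM (SD, n = 3), Wwc1 (KIBRA) by 0.34 and the kinase Taok3 by 0.29 on the log2 scale (edgeR adjusted p 0.000678, 0.000449 and 0.00343). Taok1 and Taok2, the paralogs of Taok3, had 0.0084 and -0.026, the kinase Map4k4 had -0.044 and Frmd6 had -0.14, and these 4 did not pass. Rassf1, which binds the MST kinases, rose by 0.24 (edgeR adjusted p 0.0279). Its call was lost without SRF KO replicate 1, SRF KO replicate 3, WT replicate 1 or WT replicate 3. The giant cadherin Fat4 and its partner Dchs1 were higher, by 1.48 and 0.56, at low levels of 4.89 ± 1.09 and 2.99 ± 0.527 CPM in SRF KO. The call of Dchs1 was lost without SRF KO replicate 1 (adjusted p 0.0663), SRF KO replicate 3 (0.103) or WT replicate 1 (0.0520). Of the vestigial-like proteins, which compete with YAP for TEAD, Vgll3 rose by 0.36 (adjusted p 0.0107) and Vgll4 had 0.06 (adjusted p 0.715). Vgll1 and Vgll2 did not pass the filter.

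The largest change of the pathway was that of Amot, the X-linked angiomotin, a partner of NF2 and inhibitor of YAP that is also active in visceral endoderm. It was at 223, 221 and 199 CPM in SRF KO, against 16.9, 17.3 and 15.7 CPM in WT. The log2 fold change was 3.69 (SE 0.07, edgeR adjusted p 5.8e-12), a 12.9-fold rise. Amotl1, the third member of the family, rose by 0.17 (edgeR adjusted p 0.0423). That call was lost without SRF KO replicate 1 (0.118), SRF KO replicate 3 (0.204), WT replicate 1 (0.151) or WT replicate 3 (0.0597), and by DESeq2 (0.0545). Amotl2 fell, as described above, so that the log2 ratio of Amot to Amotl2 counts went from -2.90 ± 0.129 in WT to 1.20 ± 0.106 in SRF KO (SD, n = 3). The summed CPM of the 3 angiomotins was 187 ± 4.72 in WT and 359 ± 10.96 in SRF KO. Ptpn14, a phosphatase that binds YAP, rose by 0.40, and Nuak2, a kinase of the AMPK family that YAP induces, fell by 0.80, from 11.1 ± 0.318 to 6.36 ± 0.191 CPM (edgeR adjusted p 0.000454 and 1.8e-05).

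**Figure D4:**
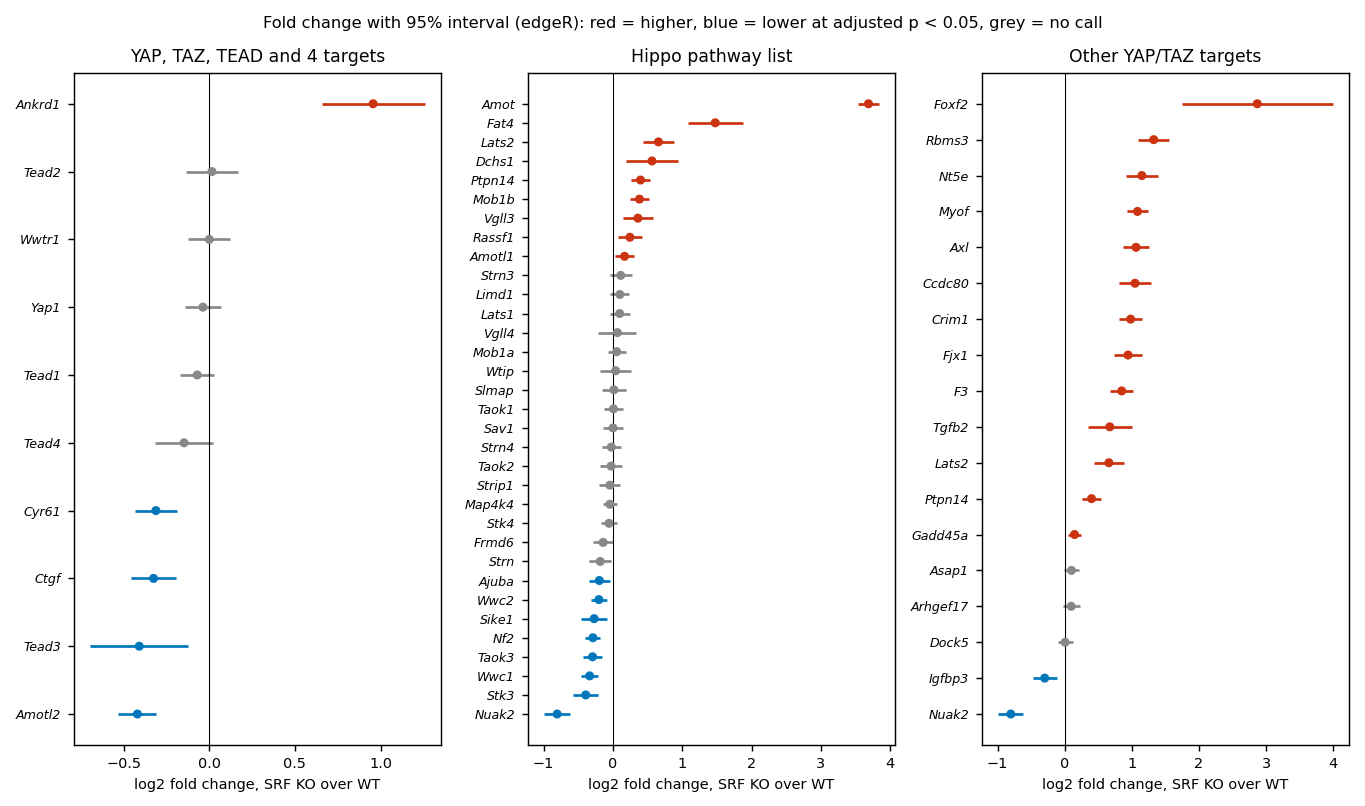
Log2 fold change of SRF KO over WT with its 95% interval (x axis) for the 10 genes, for the tested genes of the Hippo pathway list and for other YAP/TAZ targets (y axis, sorted by value). Ankrd1 lies at 0.96 and the other 3 chosen targets between -0.42 and -0.31, Amot at 3.69, and 13 of the 18 other targets lie to the right of 0 in red.

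A list of 18 other genes known to be induced by YAP or TAZ in several cell types was read in the same fit. Here 13 rose and 2 fell (83.3% called, beside 41.1% of all entries), and the median log2 fold change was 0.76. Without WT replicate 2, 14 rose and 2 fell, beside 23.5% higher and 24.6% lower over all entries. Myof, a membrane repair protein, rose from 19.5 ± 0.697 to 41.2 ± 2.90 CPM, and Crim1, a transmembrane binder of bone morphogenetic proteins, from 13.9 ± 0.982 to 27.3 ± 1.38 CPM (SD, n = 3). Rbms3, an RNA-binding protein, Axl, a receptor tyrosine kinase, and F3, the tissue factor of coagulation, rose by 1.32, 1.06 and 0.85 on the log2 scale. Their adjusted p-values by edgeR were between 4.1e-07 (Myof) and 5.6e-06 (F3). Foxf2, at 14 counts in each SRF KO library and at most 3 counts in WT, was at least 5.04-fold higher, against a floor of 3 counts per library. With Foxf2 at this bound the median was again 0.76. The falls were those of Nuak2 and of Igfbp3, an insulin-like growth factor binding protein, at -0.30 (edgeR adjusted p 0.0113). The call of Igfbp3 was lost without SRF KO replicate 2 (-0.22, adjusted p 0.0516). Asap1 and Arhgef17 had log2 fold changes of 0.10 and 0.09 and did not pass (edgeR adjusted p 0.129 and 0.224), though Asap1 passed without WT replicate 2 (0.12, adjusted p 0.0361) and with library totals alone (0.14, adjusted p 0.0401). Lats2, Ptpn14 and Nuak2 are on this list and on that of the pathway.

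Many genes of this list, as well as Ctgf, Cyr61 and Ankrd1, are also expressed by fibroblasts, and markers of other cell types moved with the groups. The 18 fibroblast markers had a summed level of 1481 to 1806 CPM in SRF KO, against 726 to 843 CPM for WT. Of them 17 rose and 0 fell (94.4% called, beside 41.1% of all entries), and their median change was 1.09 on the log2 scale. Fap, at 0.68, did not pass (edgeR adjusted p 0.148). Without WT replicate 2, 18 of 18 rose, Fap among them, beside 23.5% of all entries. Each was above 3 counts in every library. The most abundant were Bgn, Col1a1 and Fbln2, whose log2 fold changes were 1.19, 1.02 and 1.08. Of 20 extraembryonic endoderm markers, 19 were tested and 19 rose (100% called, beside 41.1% of all entries), with a median of 3.66. Their summed level was 4394 to 4714 CPM in SRF KO, against 671 to 712 CPM for WT, led by Sparc, Col4a1 and Lama1. The defining endoderm factors Gata4 and Gata6 were at 58.4 and 53.9 CPM in SRF KO, against 3.78 and 4.25 CPM in WT. Hnf4a had 125 to 145 counts in SRF KO and 2 to 5 in WT, Ttr 35 to 52 against 0 in every WT library, and Apoa1 20 to 36 against 1 to 4. Afp, at 3 counts or fewer in every library, was the marker not tested.

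Of the 12 pluripotency markers, 6 fell and 1 rose (58.3% called, beside 41.1% of all entries), with a median of -0.19. Without WT replicate 2, 8 fell and 1 rose, beside 24.6% lower and 23.5% higher over all entries. The 1 that rose was lost without SRF KO replicate 1, SRF KO replicate 2, WT replicate 1 or WT replicate 3. The most abundant were Tdgf1 at -0.20, Pou5f1 at -0.08 (edgeR adjusted p 0.258) and Esrrb at -0.49. Tdgf1 no longer passed without SRF KO replicate 1 (adjusted p 0.0750), and Pou5f1 passed only without WT replicate 2 (-0.13, adjusted p 0.0134). Trophoblast markers, among which Tead4 is known to act, summed to between 109 and 114 CPM in SRF KO, below the WT range of 140 to 152 CPM. The gap lay in Tfap2c, at 33.1 CPM in SRF KO against 71.0 CPM in WT, and without it the sums overlapped between the groups. Of 11 tested, 4 fell and 1 rose (45.5% called, near the 41.1% of all entries), with a median of -0.082. Tfap2c fell by 1.10, while Krt8 and Eomes had 0.12 and 0.09 and did not pass. Krt7, Krt18 and Ascl2 were the other falls, and the 1 that rose was Plet1, by 0.54 (edgeR adjusted p 0.000106). Cdx2, Gata3 and Hand1 did not pass (edgeR adjusted p 0.3355, 0.978 and 0.849). Elf5, a defining gene, was not tested, at 0 to 1 counts in SRF KO and 2 to 5 counts in WT, near the floor of 3. The part of fibroblast, endoderm and trophoblast RNA in the levels of the 10 genes was not tested. By direction alone, Cyr61, Ctgf and Amotl2 were lower in SRF KO. Ankrd1, most of the 18 targets, most fibroblast markers and the endoderm markers tested were higher.

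**Figure D5:**
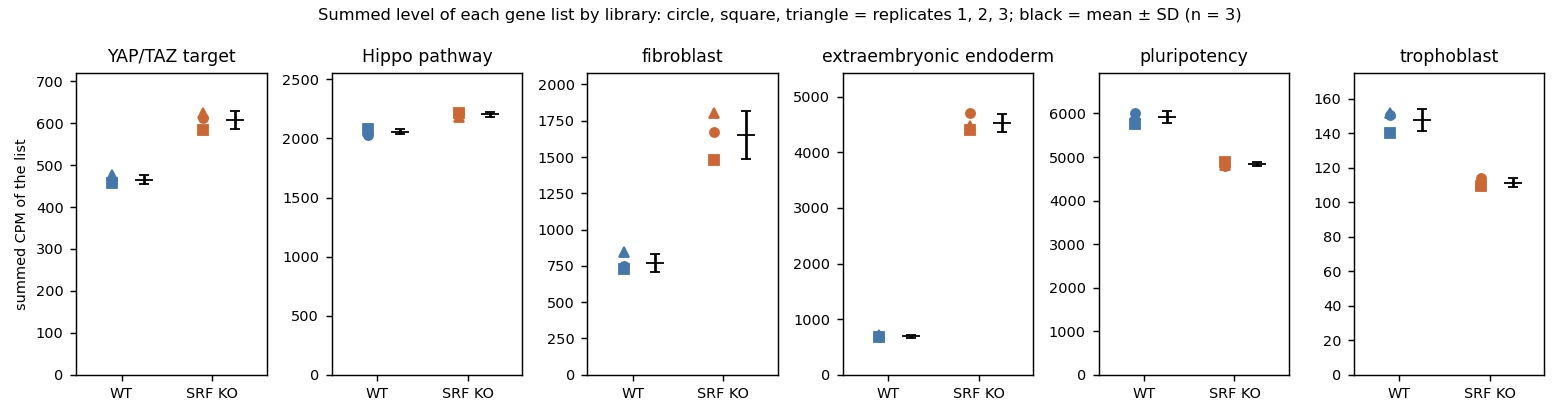
Summed TMM-scaled CPM (y axis, from 0) of 6 gene lists in each WT and SRF KO library (x axis), with the mean and SD in black. The 18 other YAP/TAZ targets, the fibroblast markers and the extraembryonic endoderm markers are higher in each SRF KO library than in any WT library. So is the Hippo pathway sum, at 2182 to 2219 CPM in SRF KO against 2033 to 2076 CPM in WT. It includes Amot, at 214 CPM in SRF KO against 16.6 CPM in WT. The pluripotency and trophoblast sums are lower, that of the trophoblast markers through Tfap2c.

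Among 12344 genes with a mean of at least 50 counts, those whose log2 CPM followed Ctgf most closely over the 6 libraries were Zer1, Prrc2b, Zfp710, Ptprf and Ogdhl, with Pearson's r between 0.9975 and 0.9994. They had log2 fold changes between -0.59 and -0.28. The closest to Yap1 were Ric3, Zpr1, Me2, Mgat4a and Ikbkap, with r between 0.968 and 0.987, and none of these 5 passed the test of SRF KO against WT (edgeR adjusted p between 0.226 and 0.755). These are descriptions over 6 libraries that share 2 groups and the same scaling.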

How the data were processed

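RNA of 3 SRF KO and 3 WT mouse iPSC libraries was sequenced by the authors as paired reads, and reads were cleaned of adaptors and poor sequence, per the labels' protocols. The values deposited are raw counts per gene and per transposable element subfamily, without normalization. The submitters' processing notes name mm10 and DESeq2 with no role. The aligner, the counter, the annotation and whether strand was used are not given in the sources used here, so that an overlapping antisense gene cannot be told apart from a gene named here. Columns were matched to samples by title.

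All rows were fitted together in R 4.3.3 with edgeR 4.0.16 (filterByExpr with a minimum count of 10, TMM, quasi-likelihood test, no replicate term, Benjamini-Hochberg adjustment, threshold 0.05). On simulated data, edgeR recovered 100% of 200 genes changed by 1 on the log2 scale among 15611 features, with 6.98% false calls, and DESeq2 1.42.0 recovered 100%. The changed genes were drawn from those with higher counts, and all genes were given the same dispersion. Recovery of smaller changes, such as those of the 10 genes, was not measured. Lengths are those of the longest coding transcript in GENCODE M21 (GRCm38, the assembly of mm10). Intervals of fold changes are at 95%. A count of 0 allows 3 counts, which is 0.0818 to 0.114 CPM before scaling, and this covers counting error only. Within groups, pairs of libraries differed by a chi-square per degree of freedom of 1.84 to 15.7, so that each counted as 1 replicate.

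The 10 genes were chosen, and the lists typed from general knowledge, with earlier results of these data known. The naming rule took all 10 genes, Srf, up to 5 genes per direction with the smallest p of the Hippo and target lists, the 3 most abundant of each marker list and the 5 genes closest to Ctgf and to Yap1. Other genes were named for their role or after their values were seen. Alternatives were another tool, other scalings, filters and thresholds, gene rows alone, a replicate block and leaving out each library.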

Additional observations from a re-analysis of the deposited data

How the results depend on the processing

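Of the calls among the 10 genes, those of Ankrd1, Amotl2, Cyr61 and Ctgf kept their direction and stayed past the threshold under every alternative run, save that none of the 10 also changed by 1 or more on the log2 scale, so that 0 rose and 0 fell by that rule. Wwtr1, near 0 throughout, changed sign to 0.0084 under DESeq2, 0.0085 with RLE size factors, 0.037 with library totals alone, 0.00036 with no filter, 0.00999 at a mean of at least 50 counts and 0.00010 with the replicate block. Leaving out single libraries, Wwtr1 was between -0.024 and 0.044 and Tead2 between -0.061 and 0.062. At library totals alone Me2 and Ikbkap changed sign to 0.0029 and 0.015, and Ikbkap was between -0.055 and 0.0074 with one library left out.

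At an adjusted p of 0.01, 2043 of all entries fell, 5 Hippo genes rose and 5 fell, 1 of the other targets fell and 0 pluripotency markers rose. Asking also for a change of 1 or more on the log2 scale, 822 entries rose and 265 fell, 2 Hippo genes rose and 0 fell, 6 of the other targets rose and 0 fell, 0 pluripotency markers rose and 0 fell, and 0 trophoblast markers rose and 2 fell. Such thresholds lower counts by construction. With one library left out, the other targets that fell were between 1 and 2, and the pluripotency markers that rose between 0 and 1. On raw counts the TEAD share of Tead3 differed by -0.35 percentage points in place of -0.74.

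Replicate numbers gave no pairing throughout: deviations from the group means correlated at 0.0435, 0.358 and 0.218 between libraries of 1 number, and SRF KO replicate 1 correlated best with WT replicate 3 (0.258). The replicate 2 libraries of both groups did deviate alike (0.358). SRF KO replicates 1 and 3 ran against WT replicate 2 (-0.226 and -0.197). With a replicate block 3721 entries rose and 3991 fell, in place of 3181 and 3233, and the 10 genes again gave 1 higher and 4 lower. Lengths of all exons joined were tried after the data were seen. Depth limits Tead3 and Ankrd1, with 127 and 114 counts in their lowest libraries.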
